A study of Mus musculus with 6 samples.

Results

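The genes of MHC class II presentation described here are 8 genes taken by symbol from the deposited expression table: H2-Aa, H2-Ab1, H2-Eb1, Cd74, H2-DMa, H2-DMb1, H2-Oa and Ciita. Each had 1 row among the 41064 genes of the table, and all 8 passed the filter on low counts that left 20132 genes for testing. RNA was measured in mouse aorta during treatment with angiotensin II, the hormone that constricts vessels and, given for long, remodels their wall. In 3 libraries the mice were wild type for Josd2, a deubiquitinase of the Josephin family, and in 3 they were labelled as Josd2 knockouts. Both groups received angiotensin II and no untreated aorta was analysed here, so every difference is one between the labelled genotypes under treatment. The labels give no strain, sex, age, dose, duration or knockout design, and they tie no library to an animal, although the design text speaks of separate mice. The p-values therefore measure the spread between these libraries, which may be technical in part or in whole. That spread was narrow: mitochondrial transcripts took 36.15% to 36.21% of counts in wild type and 23.82% to 23.87% in the others. Whether the p-values cover the spread between animals could not be tested.

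MHC class II molecules are pairs of an alpha and a beta chain that show peptides from engulfed proteins to CD4 T cells. Cd74, the invariant chain, fills their groove after synthesis and guides them to endosomes, where proteases trim it away. The DM molecule then exchanges the last fragment for peptides, and the DO molecule holds DM back. Ciita is the coactivator that switches these genes on. In most tissues the pathway is carried by dendritic cells, macrophages and B cells, and interferon gamma can induce it in other cells, so a level in whole aorta mixes the number of such cells with the RNA in each.

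The libraries held 63612353 to 75886761 deposited counts each, and an excess of genes at 4 counts was taken to mean that a read pair gives about 4. Levels are given as CPM, counts scaled to a common library size by the trimmed mean of M values (TMM), and log2 fold changes as labelled knockout over wild type. Josd2 itself was still present in the libraries labelled knockout, at 21.7, 19.9 and 21.4 CPM against 29.9, 31.0 and 29.3 CPM in wild type. It stood at 69.8% of the wild type mean (log2 fold change -0.52, SE 0.07, edgeR adjusted p = 0.000244), and with library totals as the scale the difference no longer passed (-0.11, edgeR adjusted p = 0.231). Every direction below therefore rests on the label. Mitochondrial transcripts took 36.2% of counts in each wild type library and 23.8% to 23.9% in the others. On library totals the median of all tested genes lay at 0.41 on the log2 scale, against -0.00 with TMM, and every log2 fold change and CPM value below is on the TMM scale unless library totals are named. Deposited FPKM, and sums of them, are scaled to library totals.

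The class II genes stood lower in the libraries labelled knockout. By edgeR's quasi-likelihood test at an adjusted p of 0.05, 5 of the 8 fell, 3 gave no call and none rose, where 24.7% of all tested genes passed in either direction and 11.5% passed downward. The 5 that fell were the 3 antigen-binding chains H2-Aa, H2-Ab1 and H2-Eb1, the invariant chain Cd74 and the DM alpha chain H2-DMa, each between 1.74-fold and 1.95-fold lower. The median log2 fold change of the 8 genes was -0.86, and it was -0.45 on library totals. The groups did not overlap in CPM for 6 of the 8, against 41.1% of all tested genes. In bulk tissue, fewer cells that carry class II and less class II RNA in each such cell cannot be told apart.

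**Figure D1:**
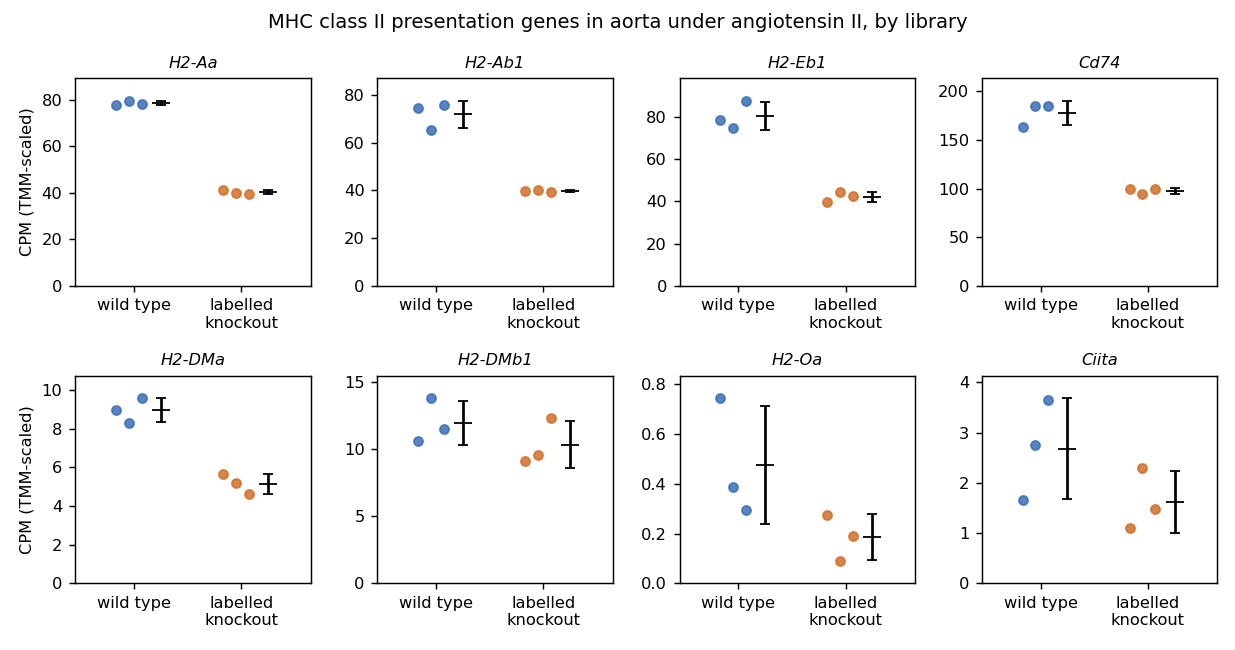
CPM (TMM-scaled, vertical axes from 0) of the 8 class II genes in 3 wild type libraries (blue) and 3 libraries labelled knockout (orange), with mean and SD as black bars. H2-Aa, H2-Ab1, H2-Eb1, Cd74 and H2-DMa separate fully, while H2-DMb1 and Ciita overlap and H2-Oa stays under 1 CPM.

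H2-Aa (ENSMUSG00000036594) encodes the alpha chain of the I-A molecule and lies on chromosome 17 from 34282744 to 34287823, minus strand. It stood at 77.7, 79.5 and 78.3 CPM in wild type and at 41.3, 40.0 and 39.6 CPM in the libraries labelled knockout. The libraries of each group lay close together and the groups were far apart. H2-Aa was 1.95-fold lower (78.5 ± 0.927 against 40.3 ± 0.898 CPM, SD, n = 3 each; log2 fold change -0.96, SE 0.05, edgeR adjusted p = 6.04e-08). Its partner chain H2-Ab1 (ENSMUSG00000073421, chromosome 17, 34257689 to 34269419, plus strand), the beta chain of I-A, stood at 74.4, 65.3 and 76.0 CPM in wild type and at 39.7, 40.0 and 39.4 CPM in the libraries labelled knockout. The second wild type library was the lowest of its group and still far above all 3 others. H2-Ab1 was 1.81-fold lower (log2 fold change -0.86, SE 0.06, edgeR adjusted p = 1.87e-06).

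H2-Eb1 (ENSMUSG00000060586, chromosome 17, 34305867 to 34316674, plus strand) encodes the beta chain of the I-E molecule. It stood at 78.7, 74.7 and 87.7 CPM in wild type and at 39.6, 44.4 and 42.4 CPM in the libraries labelled knockout. Both groups spread more than those of H2-Aa did, without overlap. H2-Eb1 was 1.91-fold lower (80.4 ± 6.64 against 42.1 ± 2.38 CPM, SD, n = 3 each; log2 fold change -0.93, SE 0.07, edgeR adjusted p = 1.89e-06). H2-Ea, the alpha chain that completes I-E, was nearly absent: its deposited counts were 0, 0 and 20 in wild type and 11, 26 and 2 in the libraries labelled knockout. Mouse strains of the H2-b haplotype lack a working H2-Ea gene and make no I-E on the cell surface, and the strain of these mice is not in the labels. H2-Ea did not pass (log2 fold change 0.53, SE 1.53, edgeR adjusted p = 0.848), so the values of H2-Eb1 are those of a beta chain transcript with little RNA of its partner beside it.

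Cd74 (ENSMUSG00000024610, chromosome 18, plus strand), which encodes the invariant chain, had the highest level of the 8 genes in every library. It stood at 164, 185 and 185 CPM in wild type and at 99.5, 94.4 and 99.8 CPM in the libraries labelled knockout. The first wild type library was the lowest of its group, and no library of the other group came near it. Cd74 was 1.82-fold lower (178 ± 12.4 against 97.9 ± 3.04 CPM, SD, n = 3 each; log2 fold change -0.86, SE 0.05, edgeR adjusted p = 3.46e-07).

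Chains of the DM molecule, which pairs H2-DMa with a beta chain from either H2-DMb1 or H2-DMb2, gave unequal results. H2-DMa (ENSMUSG00000037649, chromosome 17, 34119541 to 34139101, plus strand) stood at 8.96, 8.32 and 9.56 CPM in wild type and at 5.67, 5.17 and 4.61 CPM in the libraries labelled knockout. The groups did not overlap. H2-DMa was 1.74-fold lower (8.95 ± 0.623 against 5.15 ± 0.53 CPM, SD, n = 3 each; log2 fold change -0.80, SE 0.14, edgeR adjusted p = 0.00182). Its change was smaller on library totals (-0.39, edgeR adjusted p = 0.0437), and 10.4% of its exon bases lie antisense to exons of Brd2, a gene that rose; the sources used here do not say whether counting used the strand.

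H2-DMb1 (ENSMUSG00000079547, chromosome 17, 34153072 to 34160230, plus strand) stood at 10.6, 13.8 and 11.5 CPM in wild type and at 9.07, 9.52 and 12.3 CPM in the libraries labelled knockout. The third library labelled knockout lay above 2 of the wild type libraries, so the groups overlapped. The gene did not pass (log2 fold change -0.21, SE 0.15, edgeR adjusted p = 0.346), and the sign turned on library totals (0.20, edgeR adjusted p = 0.314). H2-DMb2, the neighbouring copy, stood at 3.41, 1.81 and 2.27 CPM in wild type and at 0.721, 1.03 and 1.07 CPM in the libraries labelled knockout. All wild type libraries lay above all others, and H2-DMb2 was 2.65-fold lower (log2 fold change -1.40, SE 0.32, edgeR adjusted p = 0.00863). Sequence is shared between the DMb genes. Of the longest H2-DMb2 transcript 61.9% matched other genes at 97% identity or more over at least 100 bases, H2-DMb1 the most alike. For the longest H2-DMb1 transcript the share was 14.2%, with H2-DMb2 the most alike. These shares differ widely for the same pair, so they do not show that H2-DMb1 is the less affected. The values of both genes depend on how shared reads were counted.

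H2-Oa (ENSMUSG00000024334, chromosome 17, 34092340 to 34095234, plus strand), the alpha chain of DO, was close to the limit of detection. Its deposited counts were 41, 22 and 19 in wild type and 22, 8 and 16 in the libraries labelled knockout, or 0.743, 0.387 and 0.295 CPM against 0.274, 0.0917 and 0.192 CPM. The groups came close without overlap in CPM and overlapped in FPKM, and the gene did not pass (log2 fold change -1.35, SE 0.76, edgeR adjusted p = 0.242). Of its exon bases, 22.8% lie antisense to BC051537. The DO beta chain H2-Ob stood at 1.20, 1.25 and 2.53 CPM against 0.896, 1.26 and 1.16 CPM. The groups overlapped and H2-Ob did not pass (-0.58, SE 0.36, edgeR adjusted p = 0.292), nor did H2-Eb2, a second E beta gene of low level (-1.0, SE 0.61, edgeR adjusted p = 0.277). These SEs leave the change of either DO chain poorly determined.

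Ciita (ENSMUSG00000022504, chromosome 16, 10480059 to 10526426, plus strand) was also thinly covered. It stood at 1.65, 2.74 and 3.65 CPM in wild type, from 91, 156 and 235 deposited counts. In the libraries labelled knockout it stood at 1.09, 2.3 and 1.48 CPM, from 88, 201 and 123 counts. The second of these lay above the first wild type library, so the groups overlapped, and both spread more than 2-fold from lowest to highest. Ciita did not pass (2.68 ± 1.0 against 1.62 ± 0.618 CPM, SD, n = 3 each; log2 fold change -0.72, SE 0.36, edgeR adjusted p = 0.179). Its fitted change lay near those of the class II chains, with an error too wide to tell it from no change.

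Levels can be compared between genes only per length, which the deposited FPKM (fragments per kilobase, scaled to the library) allow. By FPKM the order was the same in every library from the first to the sixth place: Cd74, H2-Eb1, H2-Ab1, H2-Aa, H2-DMb1 and H2-DMa. In wild type Cd74 stood at 71.6, 80.9 and 81.1 FPKM and H2-Eb1 at 29.7, 28.2 and 33.2 FPKM. H2-Ab1 followed with 18.6 to 21.8 FPKM and H2-Aa with 15.03 to 15.4 FPKM. The DM chains came next, H2-DMb1 with 4.61 to 5.99 FPKM and H2-DMa with 1.76 to 2.03 FPKM. The last 2 places changed hands between libraries: H2-Oa lay between 0.139 and 0.380 FPKM and Ciita between 0.126 and 0.279 FPKM, so these 2 did not differ beyond their spread. Cd74 alone made up 49.5% to 53.5% of the summed FPKM of the 8 genes, in both groups.

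Ratios within a library are free of the scaling between libraries and show whether the class II genes moved by equal amounts. For 6 of the other 7 genes the ratio to Cd74 overlapped between groups. Relative to Cd74, H2-Aa stood at -0.10 on the log2 scale (labelled knockout less wild type), H2-Ab1 at 0.01, H2-Eb1 at -0.07 and H2-DMa at 0.06. H2-DMb1 was the exception. Its FPKM was 0.0644, 0.0741 and 0.0620 times that of Cd74 in wild type and 0.0909, 0.101 and 0.123 times in the libraries labelled knockout. No library of one group entered the range of the other, and the difference was 0.64 on the log2 scale (exact permutation test, two-sided, p = 0.1, adjusted over 7 ratios p = 0.7). With 3 libraries against 3 that p of 0.1 is the smallest the test can give, so none of the 7 ratios could pass.

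**Figure D2:**
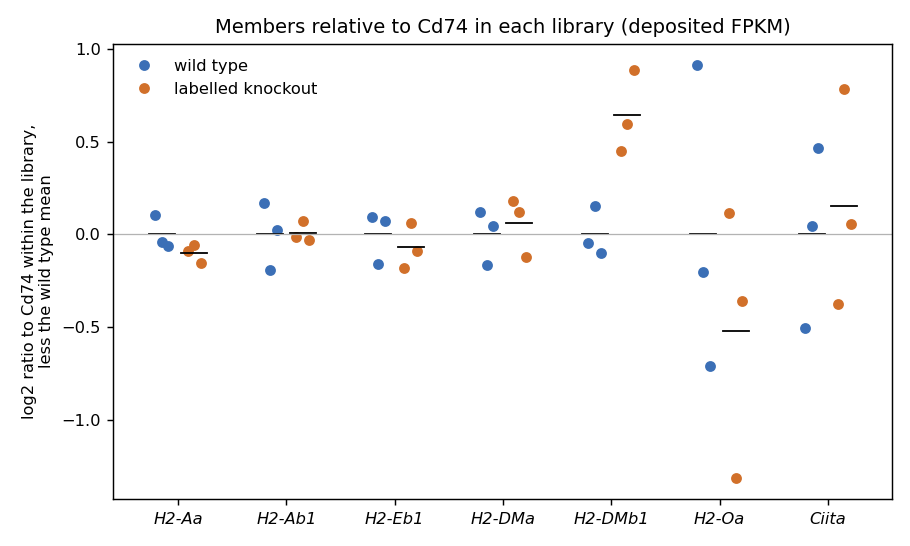
Log2 ratio of the deposited FPKM of each class II gene to that of Cd74 in the same library, less the mean of wild type, for wild type (blue) and labelled knockout (orange), with group means as black lines. Ratios of H2-Aa, H2-Ab1, H2-Eb1 and H2-DMa stay near 0, those of H2-DMb1 lie 0.64 higher in the libraries labelled knockout, and those of H2-Oa and Ciita scatter widely.

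Further ratios were chosen after the values were seen. H2-DMb2 over H2-DMb1 was 0.309, 0.126 and 0.188 in wild type and 0.0756, 0.103 and 0.0825 in the libraries labelled knockout, without overlap (-1.17 on the log2 scale, exact permutation p = 0.1). The sum of both DMb genes over Cd74 was 0.0843, 0.0834 and 0.0737 in wild type and 0.0978, 0.111 and 0.133 in the libraries labelled knockout (0.49, exact permutation p = 0.1). The summed ratio was higher in all 3 libraries labelled knockout, and how shared reads were counted was not tested. H2-DMb1 over H2-DMa went from 2.43, 3.41 and 2.47 to 3.30, 3.80 and 5.50, and these ranges overlapped (0.58, exact permutation p = 0.2).

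Class II promoters are known for a row of shared boxes upstream of the start, among them an X box bound by the RFX complex and a Y box bound by NF-Y, on which Ciita docks. Because 5 of the class II genes fell by similar amounts, the promoter windows of RefSeq (build GRCm38.p6, from 250 bases before to 50 after each start) were searched on both strands. The search took the X letters GNAAC followed after 12 to 30 bases by the Y letters GATTGG, letters that do not overlap each other and that were chosen after reading the windows. A window was given for 5 of the 8 genes, and 4 held the pair: H2-Aa, H2-Eb1, H2-DMb1 and H2-Oa. H2-DMa held only the Y letters. Among the other class II genes the pair stood in H2-Ob and H2-Eb2 and not in H2-DMb2. It was found in 1.1% of all 32851 windows, and the Y letters alone in 16.1%. As the letters were chosen after reading the windows, the counts in class II genes cannot be tested against these shares. The pairs of H2-DMb1 and H2-Oa touch annotated exons, and their stretches are not printed. The stretches below are shown for the shared spacing of both boxes, 24 to 27 bases in all 6 genes, with the X and Y letters in capitals and each read 5′ to 3′ along its gene.
H2-Aa: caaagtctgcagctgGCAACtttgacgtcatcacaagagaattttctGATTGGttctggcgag
H2-Eb1: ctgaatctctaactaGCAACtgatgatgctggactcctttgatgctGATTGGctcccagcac
H2-Ob: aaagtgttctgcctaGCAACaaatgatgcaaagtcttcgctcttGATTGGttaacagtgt
H2-Eb2: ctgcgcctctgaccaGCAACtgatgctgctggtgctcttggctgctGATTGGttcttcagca

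The H2-Aa stretch lies at chr17:34287857-34287919 on the minus strand, with its Y letters starting 49 bases before the RefSeq start of the gene. The H2-Eb1 stretch lies at chr17:34305761-34305822 on the plus strand, with the Y letters 60 bases before the start. Those of H2-Ob (chr17:34238803-34238862) and H2-Eb2 (chr17:34325528-34325589), also on the plus strand, have them 58 and 101 bases before. For H2-Ob and H2-Eb2 the RefSeq start is not the deposited start of the gene. The pair was present both in genes that fell, H2-Aa and H2-Eb1, and in genes that did not pass, H2-DMb1 and H2-Oa. A match is a description of letters and not a measured site.

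The factors that act on these promoters did not follow the class II genes as a group. Of 12 genes on the list of class II transcription, 1 rose and 1 fell, and the median was 0.09 on the log2 scale. Of all tested genes 13.2% rose and 11.5% fell. On library totals 9 of the 12 passed upward and none downward, where 9425 of all 20132 tested genes passed upward and 768 downward. The RFX subunits did not pass: Rfx5 stood at 0.19, Rfxap at 0.22 and Rfxank at 0.10. Spi1 encodes PU.1, the master factor of myeloid cells, which takes part in Ciita expression there. Spi1 stood at 10.8, 9.57 and 9.94 CPM in wild type and at 6.77, 6.23 and 5.21 CPM in the libraries labelled knockout, without overlap (log2 fold change -0.73, SE 0.14, edgeR adjusted p = 0.00278). That call was lost on library totals (-0.32, edgeR adjusted p = 0.0791). Irf1, an interferon-induced activator of the Ciita promoter, went the other way, from 13.2, 12.6 and 11.8 CPM to 17.8, 17.4 and 16.2 CPM (0.45, SE 0.09, edgeR adjusted p = 0.00481).

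Interferon gamma itself, the main inducer of Ciita outside immune cells, had at most 4 deposited counts in any library and was not tested. Of 5 tested genes of its receptor and signal chain 1 rose and 1 fell, where 13.2% of all tested genes rose and 11.5% fell. Ifngr1 rose (0.29, SE 0.05, edgeR adjusted p = 0.00227). Ifngr2 fell (-0.52, SE 0.05, edgeR adjusted p = 3.87e-05), but not on library totals (-0.11, edgeR adjusted p = 0.12).

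Among 7 genes of antigen processing, 5 fell and 1 rose, and this count depended on the scale: on library totals 5 rose and 1 fell. With TMM 11.5% of all tested genes fell and 13.2% rose, and on library totals 768 of 20132 fell and 9425 rose. The gene that fell on both scales was Ctss, which encodes cathepsin S, the protease that cleaves the invariant chain in antigen-presenting cells. Ctss stood at 58.1, 52.4 and 53.5 CPM in wild type and at 25.1, 27.9 and 27.8 CPM in the libraries labelled knockout. The groups were far apart and Ctss was 2.03-fold lower (log2 fold change -1.02, SE 0.07, edgeR adjusted p = 7.98e-07), a change of the same order as that of Cd74. Ifi30, a lysosomal thiol reductase that unfolds antigens, fell as well (-0.60, SE 0.08, edgeR adjusted p = 0.000193), but not on library totals (-0.19, edgeR adjusted p = 0.0684). The broadly expressed proteases Ctsb, Ctsd and Lgmn stood at -0.12, -0.14 and -0.17, past the test, and turned to 0.29, 0.27 and 0.24 on library totals. The call of Lgmn was also lost without the second wild type library and without the first or second library labelled knockout (edgeR adjusted p of 0.0682, 0.0693 and 0.0836). Cst3, the cathepsin inhibitor cystatin C, rose (0.45, SE 0.02, edgeR adjusted p = 3.43e-09).

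Of the genes that act after presentation, Cd80, a costimulatory ligand on antigen-presenting cells, stood at 5.04, 4.26 and 3.90 CPM in wild type and at 1.68, 1.19 and 1.04 CPM in the libraries labelled knockout. It was 3.37-fold lower (log2 fold change -1.75, SE 0.25, edgeR adjusted p = 0.000361). None of the other 5 costimulatory genes passed, and its paralog Cd86 stood at 3.44 CPM in both groups. Marchf8, a ubiquitin ligase of the family that takes class II off the surface, stood at 0.25 (edgeR adjusted p = 0.0234) and missed the threshold in 5 of the 6 fits that left out 1 library (edgeR adjusted p up to 0.0781). None of 4 class II receptors and partners on T cells (Cd4, Lag3, Cd3e and Cd28) passed edgeR's test. Over all 41 tested pathway genes outside the 8, 4 rose and 9 fell with a median of 0.07. Of all tested genes 13.2% rose and 11.5% fell. On library totals 20 of the 41 rose and 3 fell, where 9425 of all 20132 tested genes rose and 768 fell.

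**Figure D3:**
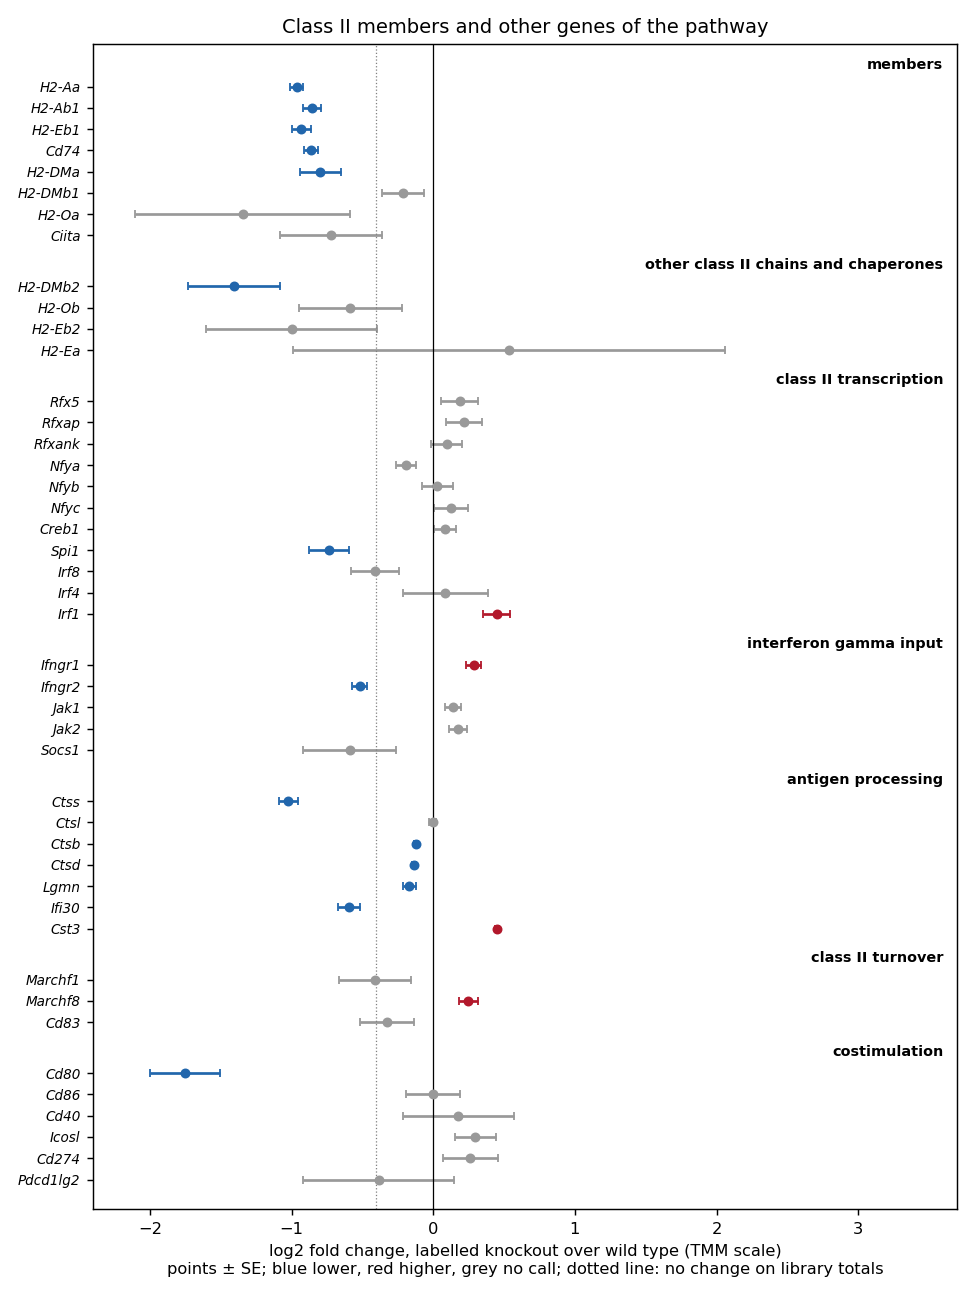
Log2 fold change (labelled knockout over wild type, TMM scale) with SE of the 8 class II genes and of pathway genes outside T cells; blue points fell, red points rose, grey points did not pass edgeR's test, and the dotted line marks no change on library totals. The points of H2-Aa, H2-Ab1, H2-Eb1, Cd74 and Ctss lie between -0.86 and -1.02, and those of most transcription genes lie near 0.

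Of the 8 class II genes 6 sit near each other in the MHC of chromosome 17, so the protein-coding genes from H2-Oa to the E genes were read in order. Of these 15 genes 5 fell (H2-DMa, H2-DMb2, H2-Ab1, H2-Aa and H2-Eb1), 2 rose and 8 did not pass, with a median of -0.58. Among all tested genes 11.5% fell and 13.2% rose. H2-DMb2 was the only gene of these 5 outside the 8 class II genes already counted. The genes that rose were not class II genes. Brd2, a bromodomain protein between H2-Oa and H2-DMa, went from 101 ± 2.73 to 123 ± 3.58 CPM (0.29, SE 0.04, edgeR adjusted p = 0.000241). Tap2, a subunit of the peptide transporter that serves class I, went from 22.3 ± 1.43 to 30.9 ± 1.13 CPM (0.47, SE 0.07, edgeR adjusted p = 0.000714). The class I genes next to it, Tap1 (0.24), Psmb9 (0.31) and Psmb8 (-0.03, and 0.38 on library totals), did not pass with TMM. By position, the class II genes that fell lay on both sides of the class I genes, none of which fell. As 11.5% of all tested genes fell, no fall among these few class I genes is not a result about them.

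**Figure D4:**
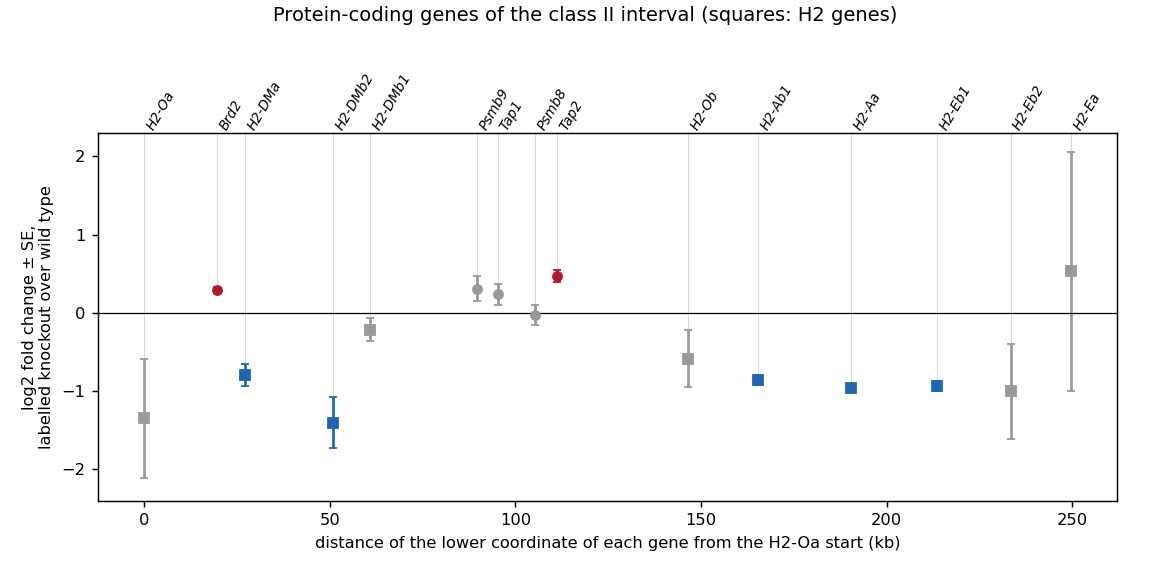
Log2 fold change with SE of 15 protein-coding genes against their distance from the start of H2-Oa in kilobases; squares are H2 genes, circles are others, blue fell, red rose, grey did not pass. Brd2, Psmb9, Tap1, Psmb8 and Tap2 lie at or above 0 except for Psmb8 at -0.03, and every square but H2-Ea lies below 0 with TMM, while H2-DMb1 turned to 0.20 on library totals.

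Markers of the cells known to carry class II differed between the groups as well. Beside the counts below, 11.5% of all tested genes fell and 13.2% rose. On library totals 768 of 20132 tested genes fell and 9425 rose. Of 8 markers shared by leukocytes all 8 fell, with a median of -1.14, and their summed level was 55.5 to 59.5 FPKM in wild type and 35.3 to 36.8 FPKM in the libraries labelled knockout. Laptm5, a lysosomal protein of blood cells, stood at -1.23 and Coro1a, an actin regulator of leukocytes, at -1.30. Of 12 macrophage markers 10 fell and 1 rose, with a median of -0.81 (7 fell and 2 rose on library totals), and their sum went from 197 to 208 FPKM down to 145 to 151 FPKM. C1qa, C1qb and C1qc, the chains of complement C1q made by resident macrophages, stood at -0.89, -1.15 and -0.78. They held most of the macrophage sum, with wild type means of 55.1, 66.9 and 23.3 FPKM. Macrophage markers did not all fall: Cd163, a scavenger receptor of resident macrophages, rose (0.66, SE 0.08, edgeR adjusted p = 8.41e-05). Mrc1, the mannose receptor, did not pass (-0.20, edgeR adjusted p = 0.0535). It passed downward in some other fits, such as DESeq2 (-0.21, DESeq2 adjusted p = 0.00485). On library totals Mrc1 passed upward (0.21, edgeR adjusted p = 0.0235). Of 6 monocyte markers 3 fell, Ccr2 by 1.71 on the log2 scale. No defining marker of leukocytes or macrophages was at 0 in either group, and the part of these cells in the class II values was not tested.

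Dendritic cell markers were sparser. Of 11 tested, 2 fell and none rose, and on library totals 1 fell and 1 rose. With TMM 11.5% of all tested genes fell, so 2 of 11 is near that share. The count of 2 became 1 under the replicate block, with no filter on low counts, and without the first wild type library or any 1 of the libraries labelled knockout, as Cd209a, a lectin of such cells, lost its call (edgeR adjusted p up to 0.144). The summed level depended on the scale. Wild type had 5.02 to 5.77 deposited FPKM and the libraries labelled knockout had 4.79 to 5.13, with overlap. In CPM they had 29.7 to 30.3 and 23.6 to 25.0, without overlap. Zbtb46 alone had a mean of 1.09 FPKM and 12.7 CPM in wild type. In the libraries labelled knockout it had 1.63 FPKM and 14.3 CPM, and its part in these sums was not tested. Itgax, the integrin CD11c, went from 3.43, 3.85 and 4.77 CPM to 1.01, 1.40 and 1.27 CPM (-1.71, SE 0.24, edgeR adjusted p = 0.000369). Zbtb46, a factor of classical dendritic cells that endothelium also makes, stood at 0.18 (0.58 on library totals, edgeR adjusted p = 0.00121) and Clec10a at -0.52, neither past the test with TMM, while Xcr1 was at 0 in the third wild type library. Of 10 B cell markers none passed edgeR's test. The B cell sum overlapped, at 2.3 to 3.85 FPKM in wild type and 2.38 to 3.31 FPKM in the libraries labelled knockout, and Cd79a and Cd79b, the signal chains of the B cell receptor, stood at -0.18 and -0.30 (0.23 and 0.11 on library totals).

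Divided by the macrophage sum of the same library, the summed FPKM of the 8 class II genes was 0.733, 0.727 and 0.786 in wild type and 0.748, 0.758 and 0.749 in the libraries labelled knockout. These ranges overlapped and their means differed by 0.01 on the log2 scale (exact permutation p = 1). On summed counts in place of FPKM the same ratio was 0.818, 0.806 and 0.865 in wild type and 0.7001, 0.712 and 0.702 in the libraries labelled knockout, without overlap (-0.23, exact permutation p = 0.1). Whether the class II sum moved with the macrophage sum thus depended on how genes were weighted. By FPKM the macrophage sum was mostly that of C1qa, C1qb and C1qc. Divided by the leukocyte sum the class II sum was 2.61, 2.54 and 2.71 against 2.996, 3.11 and 3.18, without overlap (0.24, exact permutation p = 0.1, adjusted over 4 lists p = 0.2). The class II sum was thus larger, relative to the leukocyte markers, in all 3 libraries labelled knockout. Divided by the dendritic cell sum the class II sum was 28.0, 30.1 and 27.5 against 23.1, 21.4 and 23.2 (-0.34, exact permutation p = 0.1, adjusted p = 0.2), and divided by the B cell sum the groups overlapped (-0.49, exact permutation p = 0.2, adjusted p = 0.267). None of the 4 could pass, as 0.1 is the smallest p that 3 libraries against 3 allow. The dendritic cell sum holds Zbtb46, at 1.01 to 1.18 FPKM in wild type and 1.47 to 1.82 FPKM in the libraries labelled knockout. How far Zbtb46, which endothelium also makes, set the dendritic cell ratio was not tested.

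**Figure D5:**
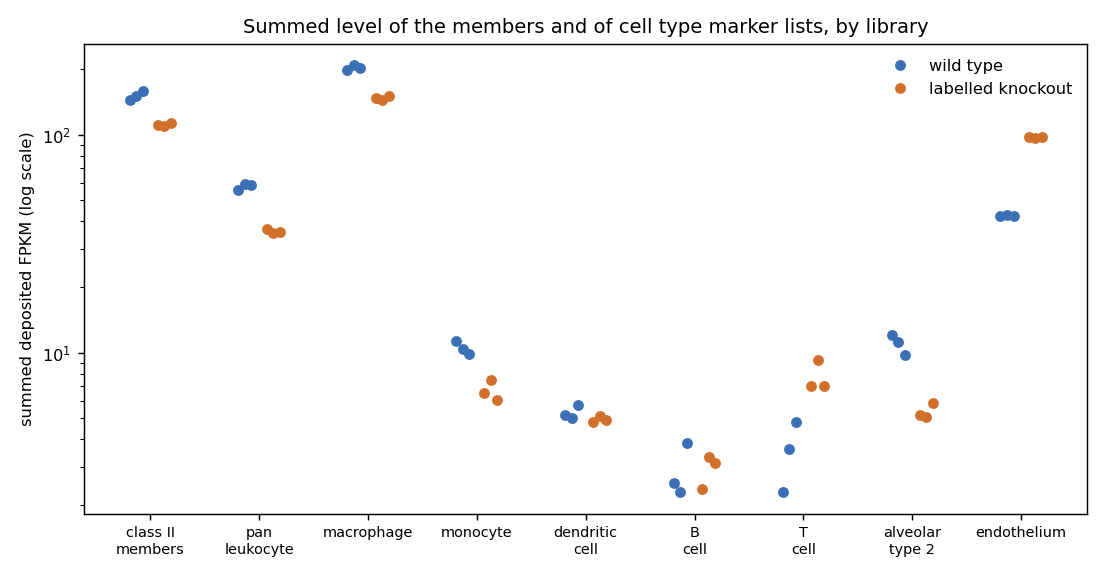
Summed deposited FPKM (log axis) of the 8 class II genes and of cell type marker lists in each library, wild type in blue and labelled knockout in orange. The class II, leukocyte, macrophage, monocyte and alveolar type 2 sums lie lower in all libraries labelled knockout, the T cell and endothelium sums lie higher, and the dendritic cell and B cell sums overlap; in CPM the dendritic cell sums do not overlap.

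Other cell types moved with the groups as well, and their part in the class II values was not tested. For comparison with the counts below, 11.5% of all tested genes fell and 13.2% rose. Alveolar type 2 cells of the lung, an epithelium known to carry class II, had markers mainly in the wild type libraries. Sftpc, the surfactant protein of these cells, stood at 5.78, 5.83 and 4.36 FPKM in wild type and at 0, 0.165 and 0.178 FPKM in the libraries labelled knockout. Of 7 such markers 4 fell, and their sum was 9.75 to 12.1 FPKM against 5.06 to 5.85 FPKM; Abca3, a lipid transporter of the list that other cells also make, did not pass (0.19). Of 10 T cell markers 3 rose and none fell, with a sum of 2.29 to 4.82 FPKM against 7.03 to 9.23 FPKM. In CPM the sums nearly met, at 6.27 to 12.36 against 12.37 to 15.9. Trbc2, a T cell receptor chain, stood at 1.34 (edgeR adjusted p = 0.00758). Lck, another of the 3, lost its call without the first wild type library or the second library labelled knockout (edgeR adjusted p of 0.0525 and 0.0964). All 6 endothelial markers rose, with a median of 1.02. Of the defining factors of thymic epithelium, which also carries class II, Aire was at 0 in 5 libraries and Foxn1 had 5 to 21 counts in each.

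The aorta label was met by its smooth muscle markers, with sums of 5637 to 5688 deposited FPKM in wild type against 6886 to 6921 in the other group. In CPM the direction was the opposite, at 19932 to 20107 against 19301 to 19408. Genes with a pattern most like the class II genes were sought by the root mean square distance of log2 CPM deviations over the 6 libraries to the median of the 8, among 4824 tested genes with a mean of at least 5 FPKM. The nearest were Col1a1, a chain of type I collagen, at 0.0296 log2 units, then Capg, an actin-capping protein, at 0.0321 and Mgp, the matrix Gla protein, at 0.0323. Synm, an intermediate filament protein of muscle, followed at 0.0335 and Sdc3, a cell surface proteoglycan, at 0.0383. With 2 groups of 3, any gene that was lower by a like amount is near by this measure, and 60 genes lay within 0.1.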

How the data were processed

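Poly(A) RNA of 6 aorta samples was sequenced in read pairs, per the labels' protocols. Named in the submitters' processing notes, without a role, are HISAT2 2.0, Bowtie 0.12.2 and build mm8; counting tool, annotation and strand use were not given in the sources used here. Per the file headers, the deposited table holds counts and FPKM. The counts the authors deposited were treated as estimated counts, since low values peak at 4 (1091 to 1137 genes per library, against 792 to 867 at 3 and 472 to 519 at 5); rounding changed 0 values. The deposited FPKM are scaled by the authors to each library's total. Gene coordinates are the table's, equal to GENCODE M21 (GRCm38) for 92.0% of genes and 6 of the 8 class II genes (not Cd74 and Ciita). Promoter stretches are placed by the RefSeq windows.

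Counts of all genes were tested with edgeR 4.0.16 in R 4.3.3: filterByExpr, TMM, glmQLFit and glmQLFTest with group as the only term, Benjamini-Hochberg adjustment over 20132 genes and a threshold of 0.05. The biological coefficient of variation was 24.4%. Ratios within a library used FPKM and two-sided exact permutation tests. On simulated counts the edgeR steps recovered 53.1%, 81.2% and 95.5% of changes planted at 1.5-fold, 2-fold and 4-fold. Of the calls in the simulated counts 9.41% were false. The planted changes, 64, 69 and 67 by size among 19241 tested genes, were all in well-covered genes. A far larger share of genes passed in the real data. The recovery rates therefore do not cover thinly covered genes such as H2-Oa. Copies were compared with BLAST+ 2.17.0. Alternatives were library totals, DESeq2 1.42.0 and its size factors, other filters, counts divided by 4, robust fits, limma 3.58.1 on log2(FPKM + 1) and log2(FPKM + 0.1), mitochondrial genes left out, the replicate number as a block, and each library left out.

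The class II genes and all lists were chosen with earlier results of these data known. Named are the 8 genes, genes of the fixed pathway lists, protein-coding genes between H2-Oa and the E genes, Josd2, at most 4 markers per cell type with the highest mean FPKM and the 5 genes nearest in pattern; Cd163, Mrc1, Xcr1 and Aire fall outside that rule and were named after their values were seen. Of the genes this rule names, 1 counted in its list is not reported here. Counting errors assume no molecular identifiers, and no batch is stated in the labels.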

Additional observations from a re-analysis of the deposited data

How the results depend on the processing

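The 5 class II genes that fell passed in all 17 alternatives, with 5 called in each. Their log2 fold changes ranged from -0.98 to -0.51 for H2-Aa, -0.92 to -0.42 for H2-Ab1, -0.98 to -0.50 for H2-Eb1, -0.92 to -0.45 for Cd74 and -0.87 to -0.24 for H2-DMa, with a highest adjusted p of 0.0437, for H2-DMa on library totals. Ciita, H2-DMb1 and H2-Oa passed in none of those that tested them (adjusted p of 0.0763 to 0.67, 0.139 to 0.725 and 0.123 to 0.568). H2-DMb1 turned to 0.20 on library totals, 0.16 with limma on log2(FPKM + 1) and 0.19 with log2(FPKM + 0.1). The count of all changed genes, 4981, became 10193 on library totals (9425 higher), 10085 and 10086 with limma on log2(FPKM + 1) and log2(FPKM + 0.1), and 3756 to 4458 without single libraries.

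On library totals and the limma fits, in that order, Ctsb turned to 0.29, 0.29 and 0.29, Ctsd to 0.27, 0.27 and 0.27, Lgmn to 0.24, 0.23 and 0.24, Ctsl to 0.41, 0.40 and 0.40, Psmb8 to 0.38, 0.30 and 0.37, Cd79b to 0.11, 0.040 and 0.055, Cd79a to 0.23, 0.091 and 0.22, and Mrc1 to 0.21, 0.18 and 0.21. With no filter Ctsl stood at 0.026 and Psmb8 at 0.0020. Without single libraries Ctsl ranged from -0.012 to 0.015, Psmb8 from -0.12 to 0.094 and Cd79a from -0.38 to 0.067. The cause of these turns was not tested. Of 1020 alternative values of named genes, 923 kept direction and side of the threshold, 32 lost and 31 gained a call, and 34 turned.

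Ratios of 3 against 3 cannot pass, so their stability rests on sign alone. Without single libraries the ratio to Cd74 ranged from -0.090 to 0.093 for H2-Ab1, -0.023 to 0.15 for H2-DMa, -0.16 to 0.42 for Ciita and 0.52 to 0.74 for H2-DMb1, and the class II sum over the macrophage sum from -0.015 to 0.042. Against the median of the other genes, which is then H2-DMb1, H2-Ab1 stood at -0.64, and on summed counts the macrophage ratio stood at -0.23.

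The labels do not say whether replicate numbers pair the samples. Deviations of same-numbered libraries correlated at 0.109, 0.115 and 0.0415 over 10632 genes. Those of differently numbered libraries correlated at -0.113 to -0.00252, so every wild type library correlated best with its own number. Whether the numbers mark a pairing was not tested. With the replicate number as a block 4560 genes and 5 class II genes passed.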
